A study of Mus musculus with 30 samples.

Results

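The aldehyde dehydrogenases are enzymes that oxidise aldehydes to carboxylic acids with NAD+ or NADP+. Transcripts of 10 of them (Aldh1a1, Aldh1a2, Aldh1a3, Aldh1a7, Aldh1b1, Aldh1l1, Aldh2, Aldh3a1, Aldh3a2 and Aldh9a1) were followed in fetal mouse liver and lung, of 18193 genes on the array. The genes were picked by name, and the probe set of each was chosen by its measured level: the one that carries the symbol alone and has the highest mean over all 30 arrays. That mean ran from 2.63 for Aldh3a1 to 9.98 for Aldh2, given as a description. The tissues came from fetuses of timed-pregnant CD-1 mice, an outbred stock, whose dams were gavaged with perfluorooctane sulfonate (PFOS), a persistent fluorinated surfactant, as its potassium salt in 0.5% Tween 20. Dams received 0, 5 or 10 mg/kg/day from gestation day 1 to 17, and tissue was taken on gestation day 18. Unexposed litters are those of the 0 mg/kg/day dams. Each array is 1 litter, made from RNA of 3 fetuses, with 5 litters per dose in each tissue. The labels do not say whether the lung and liver of 1 number came from 1 litter, and the pooling of 3 fetuses hides differences between them.

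Members of the family differ in the aldehyde they act on. Aldh1a1, Aldh1a2 and Aldh1a3 turn retinaldehyde into retinoic acid, the ligand of the retinoic acid receptors and a signal in lung and liver development, and Aldh1a7 is a rodent paralogue of Aldh1a1. Aldh3a2 oxidises long-chain fatty aldehydes in the endoplasmic reticulum and peroxisome, and Aldh3a1 is an aldehyde dehydrogenase best known from cornea and stomach. Aldh2 and Aldh1b1 are mitochondrial enzymes that oxidise acetaldehyde. Aldh9a1 oxidises 4-trimethylaminobutyraldehyde, a step of carnitine synthesis, and Aldh1l1 oxidises 10-formyltetrahydrofolate in the folate cycle.

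Values are log2 levels, and a change is the mean of one group minus that of another on the log2 scale. A change was called, and is written as a rise or a fall, where limma's p, adjusted by Benjamini-Hochberg over every gene tested in that comparison, was under 0.05. In fetal liver 4 of the 10 genes rose at both doses: Aldh1a7 by 2.32 and 2.68, Aldh1a1 by 1.34 and 1.88, Aldh3a2 by 1.07 and 1.28, and Aldh9a1 by 0.64 and 0.82. Of all 13269 genes tested in liver, 6.07% were called at 5 mg/kg/day (4.26% higher, 1.81% lower) and 10.5% at 10 mg/kg/day (5.3% higher, 5.22% lower). In fetal lung none of the 8 tested genes was called at either dose, against 0.0155% and 0.0543% of all genes tested there. The plot of levels by tissue and dose shows each litter.

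**Figure D1:**
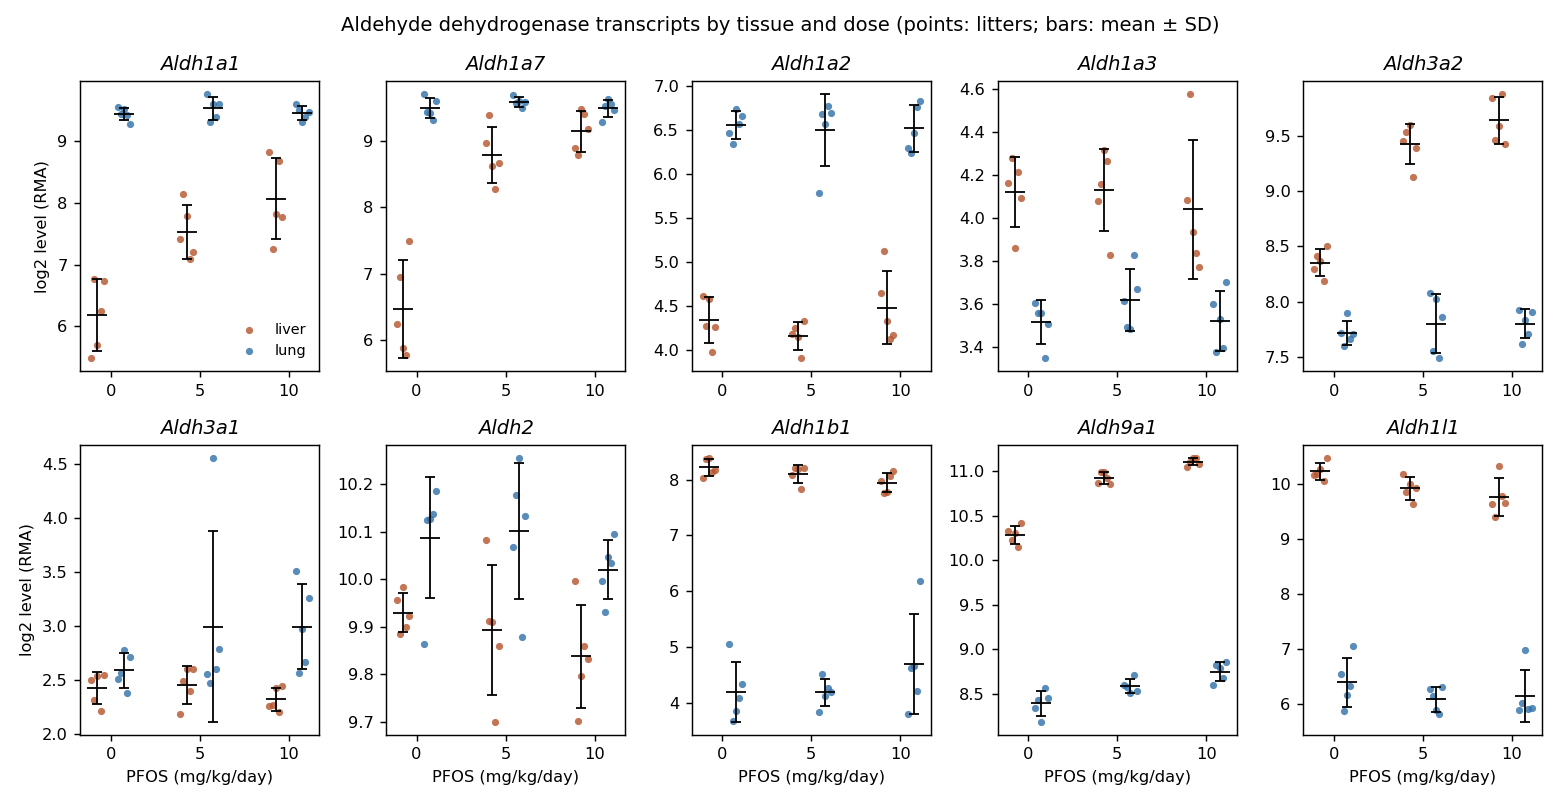
Log2 level (RMA) of each of the 10 genes against PFOS dose in mg/kg/day, with liver in orange and lung in blue. Points are litters, and bars are the mean ± SD of 5 litters. The vertical axes differ between panels. Aldh1a1, Aldh1a7, Aldh3a2 and Aldh9a1 lie higher in exposed than in unexposed liver with no overlap, and Aldh1a1 and Aldh1a7 in lung lie between 9.28 and 9.76 at every dose.

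Aldh1a1 and Aldh1a7 are neighbouring protein-coding genes on chromosome 19 in the RefSeq gene table, and Aldh3a1 and Aldh3a2 are neighbours on chromosome 11. RefSeq promoter windows (build GRCm38.p6, 250 bases before to 50 after a start site) were found for 7 of the 10 genes, and Aldh1a1 has 2 of them. The windows of the downstream Aldh1a1 start and of Aldh1a7 are printed because these 2 genes had the largest rises of the family and their windows are the most alike. Capitals mark runs of at least 10 aligned bases that are identical in both.

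Aldh1a1, chr19:20601718-20602017, + strand: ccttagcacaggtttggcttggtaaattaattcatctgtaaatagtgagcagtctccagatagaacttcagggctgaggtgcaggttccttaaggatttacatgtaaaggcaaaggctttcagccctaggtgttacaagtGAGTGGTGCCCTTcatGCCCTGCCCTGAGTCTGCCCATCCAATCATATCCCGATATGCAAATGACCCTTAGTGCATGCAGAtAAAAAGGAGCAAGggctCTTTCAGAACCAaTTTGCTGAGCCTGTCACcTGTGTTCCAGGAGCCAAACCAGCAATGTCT

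Aldh1a7, chr19:20727507-20727806, - strand: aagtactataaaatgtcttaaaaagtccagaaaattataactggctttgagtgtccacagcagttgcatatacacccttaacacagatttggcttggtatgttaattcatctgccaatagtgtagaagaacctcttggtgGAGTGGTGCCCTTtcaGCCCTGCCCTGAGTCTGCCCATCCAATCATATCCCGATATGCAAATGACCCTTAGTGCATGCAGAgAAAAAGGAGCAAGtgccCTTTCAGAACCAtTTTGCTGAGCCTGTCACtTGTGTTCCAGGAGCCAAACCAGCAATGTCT

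In a pairwise alignment 221 of 286 aligned bases were identical (77.3%), and 6 runs held 150 of them, the longest being 65 bases. The upstream Aldh1a1 window, chr19:20492333-20492632 on the + strand, matched Aldh1a7 at 163 of 261 aligned bases (62.5%). Of the 28 pairs of windows compared, the downstream Aldh1a1 and Aldh1a7 pair was the most alike, and the 27 others ranged from 50.2% to 63.8%. Paralogues can share labelled RNA on an array. Transcript and probe sequences of Aldh1a1 and Aldh1a7 were not compared here, and how far their values are separate measurements was not tested.

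The windows were searched on both strands for 3 motifs. These were the nuclear receptor half-site AGGTCA, held by 16.3% of 32851 RefSeq promoter windows of the same length, the direct repeat that PPAR-RXR dimers bind (2 copies of AGGTCA with 1 base of any kind between them), and the antioxidant response element core TGACNNNGC, held by 12.4%. The half-site is part of the direct repeat. The repeat was held by 0.0396% of windows exactly and by 3.86% with up to 2 mismatches. Among the 4 genes that rose, Aldh9a1 was the one with a match. Its window is printed with the match to the direct repeat with up to 2 mismatches, which begins at -144 from the start site, and the match to TGACNNNGC, which begins at -87, in capitals.

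Aldh9a1, chr1:167349741-167350040, + strand: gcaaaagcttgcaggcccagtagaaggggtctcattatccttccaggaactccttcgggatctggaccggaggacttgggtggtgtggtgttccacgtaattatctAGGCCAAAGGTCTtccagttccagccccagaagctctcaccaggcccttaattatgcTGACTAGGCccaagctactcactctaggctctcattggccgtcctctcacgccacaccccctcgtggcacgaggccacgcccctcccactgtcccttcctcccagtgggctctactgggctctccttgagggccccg

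No match to any of the 3 motifs was found in either Aldh1a1 window or in those of Aldh1a7 and Aldh3a2, which says only that these letters are not in these windows. Aldh1l1 held the half-site and Aldh1a2 the sequence TGACCGTGC, and Aldh1b1 held none.

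Arrays of 1 group correlated with r from 0.9904 to 0.9932 in liver and from 0.9895 to 0.9947 in lung over probe sets. Of 14 hepatocyte markers on the array all 14 were above the filter, with mean levels of 12.6 to 12.8 in liver and 7.12 to 9.50 in lung, and the 11 lung epithelium markers lay at 10.98 to 11.33 in lung and 5.20 to 5.88 in liver. Cardiac muscle markers ranged from 6.72 to 10.1 over the lung arrays, all 10 of them above the filter, against 3.70 to 4.62 in liver. Stomach markers were higher in unexposed liver litters 2, 3 and 5 (means 6.52, 5.76 and 5.57) than in litters 1 and 4 (4.58 and 4.73), and ranged from 4.60 to 4.86 in exposed liver. Of the 13 stomach markers on the array, 4 (Cblif, Gkn1, Pga5 and Anxa10) were not above the filter in liver. The 7 acinar pancreas markers on the array were all above the filter in liver. Their mean ranged from 4.75 to 6.147 without PFOS, from 4.737 to 6.075 at 5 mg/kg/day and from 4.667 to 5.426 at 10 mg/kg/day. In bulk tissue a lower level can mean fewer cells of a type or less RNA per cell, and these cannot be told apart.

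Among the retinaldehyde enzymes Aldh1a1 rose in liver, and the levels of Aldh1a2 and Aldh1a3 were low there. In litters 1 to 5 Aldh1a1 was at 5.49, 6.76, 5.71, 6.24 and 6.74 without PFOS, at 7.41, 8.15, 7.79, 7.09 and 7.21 at 5 mg/kg/day, and at 8.82, 7.26, 7.82, 8.68 and 7.77 at 10 mg/kg/day. Every exposed litter was above every unexposed one, and the exposed groups overlapped each other. The means were 6.19 ± 0.58 (SD, n = 5), 7.53 ± 0.44 and 8.07 ± 0.66. The lower dose raised the level 2.54-fold, a change of 1.34 (SE 0.31, limma adjusted p = 0.0171), and the higher dose 3.69-fold, a change of 1.88 (SE 0.31, adjusted p = 0.000958). All 5 of 5 exposed litters were above the unexposed mean at each dose. These were the 29th and 20th largest rises among the 13269 genes tested.

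Among the 9 members tested there were 4 rises without a fall at 5 mg/kg/day and 4 rises with 1 fall at 10 mg/kg/day. The median change of the 9 was 0.01 and 0.14, against -0.01 and -0.02 over all genes tested. Both doses were set against the same 5 unexposed litters, so the calls at 5 and 10 mg/kg/day are not independent of each other. Aldh3a1 was not tested in liver because on 0 of 15 arrays did it exceed the 40th percentile of the array, the filter used.

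Aldh1a7 had the largest change of the family. Without PFOS its levels in litters 1 to 5 were 6.24, 6.95, 5.88, 5.77 and 7.49. At 5 mg/kg/day they were 8.97, 9.39, 8.62, 8.27 and 8.67, and at 10 mg/kg/day 8.89, 8.78, 9.48, 9.40 and 9.17. The lowest exposed litter was above the highest unexposed one, as was so for 4.84% and 4.63% of all genes tested, those lower without overlap being 2.77% and 4.41%, and litter 5 was the highest of the unexposed group. The change was 2.32 (SE 0.29, limma adjusted p = 0.000108), or 4.99-fold, and 2.68 (SE 0.29, adjusted p = 1.48e-05), or 6.39-fold. It was the 6th largest rise of the 13269 genes at 5 mg/kg/day and the 7th at 10 mg/kg/day.

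Unexposed litters 2 and 5, which were the highest for both Aldh1a1 and Aldh1a7, were 2 of the 3 with raised stomach markers. Litter 3, the other of those, had 5.71 and 5.88, below the group means of 6.19 and 6.47. Without unexposed litters 2, 3 and 5 the changes of Aldh1a1 were 1.67 and 2.20 and those of Aldh1a7 2.78 and 3.14, each still called. Leaving out litters 2 and 5, the highest unexposed litters for both genes, lowers the unexposed mean, so larger changes follow from that alone. The part of stomach tissue in these levels was not tested.

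Aldh1a2, the retinaldehyde dehydrogenase of mesoderm and mesothelium, had mean levels in liver of 4.35 ± 0.26 (SD, n = 5), 4.16 ± 0.16 and 4.48 ± 0.41 at 0, 5 and 10 mg/kg/day. Its probe set passed the filter on 9 of 15 liver arrays. The changes were -0.18 (95% interval -0.54 to 0.18) and 0.14 (-0.22 to 0.49), and neither was called. Aldh1a3, which makes retinoic acid in several epithelia, was at 4.12 ± 0.16, 4.13 ± 0.19 and 4.04 ± 0.32, passed on exactly 5 of 15 arrays, and had changes of 0.01 (-0.28 to 0.30) and -0.08 (-0.37 to 0.21). For both genes the litters of the 3 groups overlapped.

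Of the fatty aldehyde enzymes Aldh3a2 rose in every exposed liver litter. Its levels in litters 1 to 5 were 8.29, 8.41, 8.37, 8.19 and 8.51 without PFOS, 9.46, 9.54, 9.60, 9.13 and 9.39 at 5 mg/kg/day, and 9.84, 9.46, 9.59, 9.88 and 9.43 at 10 mg/kg/day. The highest unexposed litter lay below the lowest exposed litter, and the 2 exposed groups overlapped. The rise was 1.07 (SE 0.10, limma adjusted p = 9.88e-06), or 2.10-fold, and 1.28 (SE 0.10, adjusted p = 7.35e-07), or 2.44-fold. Aldh3a1 stayed between 2.18 and 2.60 over all liver litters, below the filter, so no change is given.

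The acetaldehyde enzymes Aldh2 and Aldh1b1 were not called in liver. Aldh2 was one of the most even members, at 9.93 ± 0.04 (SD, n = 5), 9.89 ± 0.14 and 9.84 ± 0.11, and its changes were -0.04 (95% interval -0.19 to 0.11) and -0.09 (-0.24 to 0.06). The 4 further probe sets of Aldh2, 1 of them below the filter, had changes between -0.22 and 0.02 at 5 mg/kg/day and between -0.11 and -0.01 at 10 mg/kg/day. Aldh1b1 was at 8.22 ± 0.15, 8.11 ± 0.16 and 7.95 ± 0.17. The lower dose gave a change of -0.11 (-0.32 to 0.09) and the higher one -0.27 (-0.48 to -0.07, limma adjusted p = 0.0890), with 5 of 5 litters below the unexposed mean at each dose but overlap between the groups.

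Set side by side, 1 of 3 retinaldehyde enzymes (Aldh1a1), 1 of 1 tested fatty aldehyde enzyme (Aldh3a2) and 0 of 2 acetaldehyde enzymes rose at each dose. The other retinaldehyde enzymes, Aldh1a2 and Aldh1a3, were near the floor in liver, above the filter on 9 and 5 of 15 arrays. The lack of a call for them therefore says little. The intervals of Aldh1a1 (0.68 to 2.01 at 5 mg/kg/day) and Aldh3a2 (0.85 to 1.29) did not meet that of Aldh2 (-0.19 to 0.11). The difference between substrate classes was not tested, since each holds 3 genes or fewer. The plot of changes gives the interval of every tested member.

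**Figure D2:**
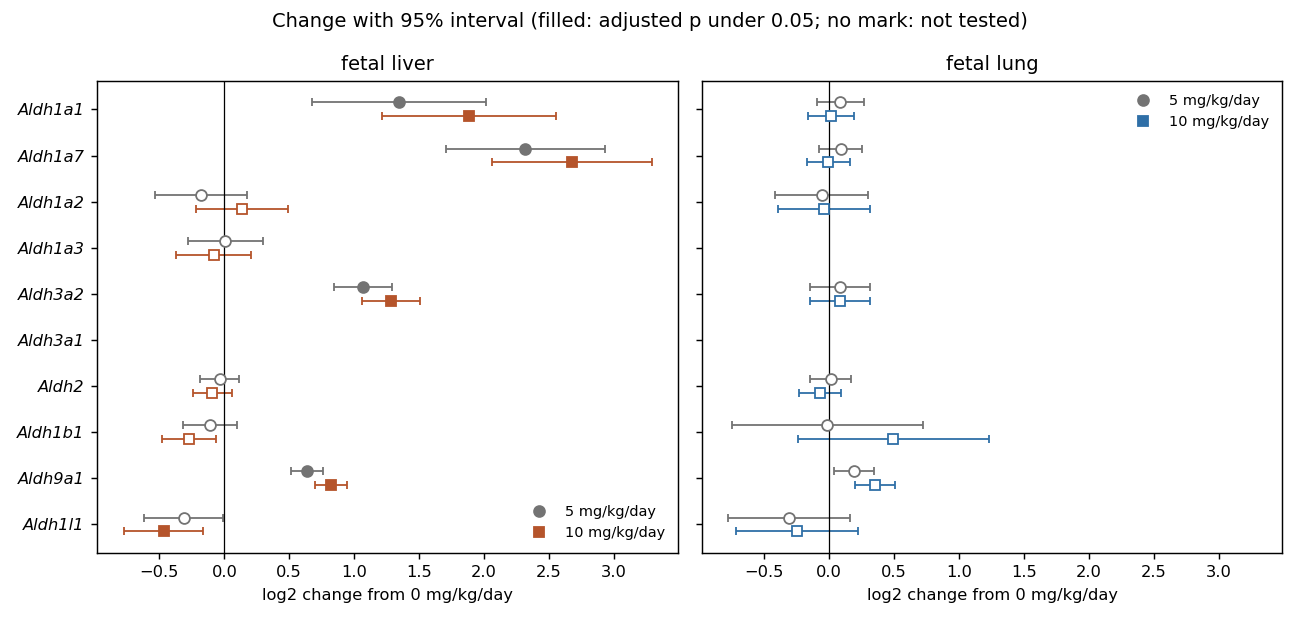
Log2 change from unexposed litters, with its 95% interval from limma, for each gene at 5 (grey circles) and 10 mg/kg/day (coloured squares) in fetal liver and lung. Filled marks have an adjusted p under 0.05, and a gene without a mark was not tested in that tissue. In liver the filled marks right of 0 belong to Aldh1a1, Aldh1a7, Aldh3a2 and Aldh9a1 and the one left of 0 to Aldh1l1; in lung no mark is filled.

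Aldh9a1, the carnitine synthesis enzyme, had the smallest rise of the 4 and the smallest spread. Its levels in litters 1 to 5 were 10.33, 10.23, 10.30, 10.15 and 10.42 without PFOS, 10.87, 10.99, 10.99, 10.92 and 10.86 at 5 mg/kg/day, and 11.05, 11.10, 11.15, 11.15 and 11.08 at 10 mg/kg/day. None of the 3 groups overlapped another. The change was 0.64 (SE 0.06, limma adjusted p = 4.83e-06), or 1.56-fold, and 0.82 (SE 0.06, adjusted p = 1.55e-07), or 1.77-fold. A second Aldh9a1 probe set, at 8.68 without PFOS, rose by 0.69 and 1.03.

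Between 10 and 5 mg/kg/day Aldh9a1 differed by 0.18 (SE 0.06, unadjusted p = 0.00551, limma adjusted p = 0.482). The groups were apart in that direction for 0.354% of genes and in the other for 0.799%. No member was called between the 2 doses, where 0.00754% of genes (1 of 13269) were called by limma and 1035 had an unadjusted p under 0.05. Of the 9 members tested, Aldh9a1 was the 1 with an unadjusted p under 0.05. For Aldh1a1, Aldh1a7 and Aldh3a2 the difference was 0.54 (95% interval -0.13 to 1.21), 0.36 (-0.26 to 0.97) and 0.22 (-0.01 to 0.44).

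Aldh1l1 was the only member called lower. It was at 10.17, 10.19, 10.27, 10.07 and 10.48 in litters 1 to 5 without PFOS, at 10.19, 9.86, 10.00, 9.63 and 9.93 at 5 mg/kg/day, and at 9.65, 9.40, 10.34, 9.79 and 9.66 at 10 mg/kg/day. Litter 3 at 10 mg/kg/day lay within the unexposed range and the other 4 below it. The lower dose gave -0.31 (SE 0.14, limma adjusted p = 0.235), which was not called, and the higher dose -0.47 (SE 0.14, adjusted p = 0.0486). The call at 10 mg/kg/day was lost in 17 of 22 alternative settings, with adjusted p from 0.00283 to 0.405, among them without any 1 unexposed litter (0.0541 to 0.113) and without litters 1, 2, 4 or 5 at 10 mg/kg/day. A second, dim Aldh1l1 probe set had changes of -0.33 and -0.46, neither called.

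Some markers of cell types were also called in liver. Of all genes tested there, 1.81% and 5.22% were called lower at 5 and 10 mg/kg/day, and 4.26% and 5.3% higher. In lists this short a count of 1 is no result about the list. Of 14 hepatocyte markers 0 and 3 were called lower at 5 and 10 mg/kg/day, with median changes of -0.04 and -0.11. Of 8 stellate cell and fibroblast markers 1 and 3 were lower, of 6 mesothelium markers 1 and 2, of 6 erythroid markers 3 and 0, and of 6 endothelium markers 1 and 1. Of 4 small intestine markers 2 and 1 were higher, and at 10 mg/kg/day 1 of 9 stomach and 1 of 7 acinar pancreas markers were lower. The mean level of the hepatocyte list ranged from 12.69 to 12.84 in unexposed litters and from 12.61 to 12.74 at 10 mg/kg/day. The part of these lists in the changes of the aldehyde dehydrogenases was not tested.

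Across the 15 liver arrays the 4 genes that rose had pairwise correlations from 0.84 (Aldh1a1 with Aldh9a1) to 0.96 (Aldh3a2 with Aldh9a1), a description of arrays that share their doses. With each dose's mean removed, Aldh1a1 and Aldh3a2 had r = 0.77, Aldh1a1 and Aldh1a7 0.56, Aldh3a2 and Aldh9a1 0.38, and Aldh1a1 and Aldh9a1 0.13. The litters highest for Aldh1a1 at 10 mg/kg/day, 1 and 4, were also the highest for Aldh3a2. The pattern over arrays most like that of Aldh1a1 among 13269 genes was that of Entpd5 (r = 0.94), then Slc35f5 and Dnmbp. For Aldh1a7 these were Ppcs (r = 0.97), Acsl4 and Lpcat3, for Aldh3a2 Plin2 (r = 0.99), Acaa1b and Eci1, for Aldh9a1 Acadl (r = 0.98), Ehhadh and Lpcat3, and for Aldh1l1 Dcxr (r = 0.90), Cyp2e1 and Tdo2.

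The other 10 aldehyde dehydrogenase genes on the list of the family, all tested in liver, held 0 rises at either dose, and 1 and 2 falls, where 4.26% and 5.3% of all genes rose and 1.81% and 5.22% fell. Aldh1l2, the mitochondrial counterpart of Aldh1l1, fell by 0.84 (SE 0.20, limma adjusted p = 0.0177) and by 0.90 (SE 0.20, adjusted p = 0.00793). It went from 5.37 ± 0.49 (SD, n = 5) to 4.53 ± 0.32 and 4.47 ± 0.17. Its highest unexposed litter, litter 4 at 6.15, was one of the pair without raised stomach markers. That litter had the highest mean of acinar pancreas markers of all liver arrays (6.147). The part of other tissues in the fall of Aldh1l2 was not tested. Aldh6a1, which oxidises methylmalonate semialdehyde, fell by 0.33 at 10 mg/kg/day (SE 0.09, adjusted p = 0.0293), while its value of -0.23 for the lower dose missed the threshold (adjusted p = 0.166). Aldh3b1, Aldh3b2, Aldh4a1, Aldh5a1, Aldh7a1, Aldh8a1, Aldh16a1 and Aldh18a1 had changes between -0.10 and 0.10 and between -0.17 and 0.18. Aldh8a1, which also oxidises retinaldehyde in vitro, was at 9.14 ± 0.07, 9.19 ± 0.13 and 9.18 ± 0.13.

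Genes that make or use the same aldehydes were taken from lists chosen with earlier results of these data known. The counts of every list are to be read against the shares of all genes tested in liver. These were 4.26% and 5.3% higher and 1.81% and 5.22% lower at 5 and 10 mg/kg/day. The 27 tested genes of retinoid metabolism and signalling held 6 rises and 0 falls at the lower dose and 3 rises and 1 fall at the higher one, with median changes of 0.02 and 0.00. Retsat, which saturates retinol, rose by 1.30 and 1.52. The retinol dehydrogenase family members Dhrs4 and Rdh11 rose by 0.71 and 0.81 and by 0.69 and 0.76, and at 5 mg/kg/day Rdh9 rose by 0.93 and Adh4, an alcohol dehydrogenase, by 0.77. At 10 mg/kg/day these last genes were not called, Rdh9 being at -0.05 (limma adjusted p = 0.941) and Adh4 at 0.52 (adjusted p = 0.155). Rdh10, which oxidises retinol to retinaldehyde, fell by 0.22 at 10 mg/kg/day.

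The 16 tested genes of fatty alcohol and fatty aldehyde formation held 3 rises and 1 fall at the lower dose and 4 rises and 1 fall at the higher one (median changes 0.06 and 0.12). The fatty acid omega-hydroxylases Cyp4a14 and Cyp4a12a rose by 2.13 and 2.29 and by 1.34 and 1.72. Hacl1, a lyase that releases fatty aldehydes from branched and 2-hydroxy acids, rose by 0.39 at 5 mg/kg/day, and Cyp4f15 rose by 0.57 at 10 mg/kg/day. The other rise at 10 mg/kg/day, of 0.40, was that of Agmo, which cleaves ether lipids to aldehydes and is named after its value was seen. Cyp4v3, a fatty acid omega-hydroxylase, fell by 0.59 and by 0.92.

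Of 6 tested carnitine synthesis and uptake genes, 2 rose and 0 fell at each dose (median changes 0.11 and 0.05). Bbox1, the enzyme after Aldh9a1 in the pathway, rose by 0.61 and 0.68, and the carnitine transporter Slc22a5 rose by 0.54 and 0.82. The 6 ethanol and acetaldehyde genes held 1 rise at the lower dose, and 2 rises and 1 fall at the higher one (median changes 0.11 and 0.12). Acss2, which makes acetyl-CoA from acetate, rose by 0.96 and 1.15; at 10 mg/kg/day catalase (Cat) rose by 0.29 and Cyp2e1, an ethanol-oxidising cytochrome P450, fell by 0.68.

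Among 17 tested enzymes that reduce or conjugate aldehydes, 0 rose, and 2 and 3 fell (median changes -0.05 and -0.06). Gsta4, a glutathione transferase that acts on 4-hydroxynonenal, fell by 0.55 and by 0.58, and the aldo-keto reductase Akr1b10 fell by 0.59 and by 0.56. Akr1c6, another aldo-keto reductase, fell by 0.92 at 10 mg/kg/day. Of 15 folate one-carbon genes Fpgs alone was called, rising by 0.47 and 0.38 (median changes of the list 0.04 and -0.05). The plot of the pathway lists shows every tested gene.

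**Figure D3:**
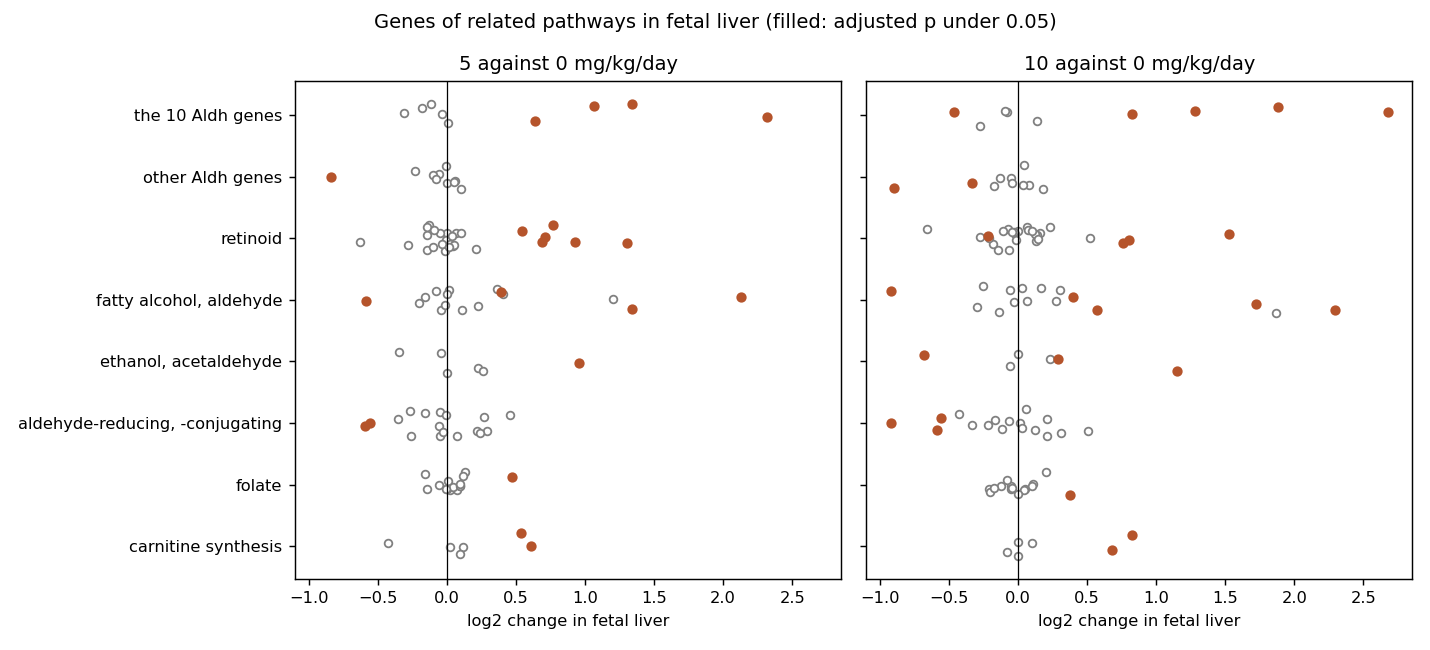
Log2 change in fetal liver at 5 (left) and 10 mg/kg/day (right) of the tested genes among the 10 aldehyde dehydrogenases and of each related list; vertical scatter within a row has no meaning. Filled points have an adjusted p under 0.05. The points farthest right are Aldh1a7 and Cyp4a14 at both doses, and no gene of the other aldehyde dehydrogenases or of the aldehyde-reducing and -conjugating enzymes is filled right of 0.

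In fetal lung the question was whether the same genes responded. Of the 8 members tested none was called at 5, at 10 or between 10 and 5 mg/kg/day by limma, where 0.0155%, 0.0543% (0.0388% higher) and 0% of the 12897 genes were called. Unadjusted p-values under 0.05 numbered 596, 891 and 296 over all genes and 1, 1 and 1 over the members, each time Aldh9a1. Aldh3a1 passed the filter on 1 of 15 lung arrays and Aldh1a3 on 0, so neither was tested. The median change of the 8 was 0.05 and 0.01, against 0.00 and 0.01 over all genes.

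Aldh1a1 and Aldh1a7 were high and even in lung. Aldh1a1 was at 9.44 ± 0.10 (SD, n = 5), 9.53 ± 0.18 and 9.46 ± 0.11 at 0, 5 and 10 mg/kg/day, and its change was 0.09 (95% interval -0.09 to 0.27) and 0.02 (-0.16 to 0.20). Aldh1a7 was at 9.49 ± 0.16, 9.59 ± 0.07 and 9.49 ± 0.13, with changes of 0.09 (-0.07 to 0.26) and -0.01 (-0.17 to 0.16). Aldh3a2 was at 7.72 ± 0.11, 7.80 ± 0.27 and 7.80 ± 0.13, with changes of 0.09 (-0.15 to 0.32) and 0.08 (-0.15 to 0.31). The upper bounds of these intervals lie below the changes measured in liver.

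Aldh9a1 had the smallest unadjusted p of the members in lung. Its levels in litters 1 to 5 were 8.34, 8.43, 8.19, 8.57 and 8.45 without PFOS, 8.60, 8.58, 8.51, 8.72 and 8.53 at 5 mg/kg/day, and 8.60, 8.82, 8.80, 8.68 and 8.85 at 10 mg/kg/day. All litters at 10 mg/kg/day lay above all unexposed ones, as did those of 0.636% of genes, and 5 of 5 at 5 mg/kg/day lay above the unexposed mean. The change was 0.19 (SE 0.07, unadjusted p = 0.0191, limma adjusted p = 0.990) and 0.36 (SE 0.07, unadjusted p = 0.000181, adjusted p = 0.180). When liver and lung were fitted together, limma's adjusted p for the same change at 10 mg/kg/day was 0.00945, and over the 22 alternatives it ranged from 0.00945 to 0.515. The second probe set had changes of 0.06 and 0.31.

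Marker levels on the lung arrays varied with several members. In all, 80 relations between the 8 tested members and 10 marker lists were computed over the 15 lung arrays, with 100000 permutations each. The permutations exchanged arrays of all 3 doses, so each permutation p also takes in any trend with dose. The level of Aldh9a1 and the mean of the lung epithelium list had Pearson's r = -0.75 (permutation p = 0.00096, adjusted 0.0256) and Spearman's rho = -0.71 (permutation p = 0.0034, adjusted 0.0907). Without the 2 arrays farthest from the median of the list r was -0.61, and within the 3 doses it was -0.23, -0.97 and -0.84. Between 0 and 10 mg/kg/day the mean of Aldh9a1 went from 8.39 to 8.75 and that of the list from 11.265 to 11.116. The permutation p does not separate this from a relation between litters of 1 dose. The epithelial list spanned only 10.98 to 11.33, and its median change at 10 mg/kg/day was -0.16 with 0 of 11 markers called. With the hepatocyte list Aldh9a1 had r = 0.08 (permutation p = 0.772). The part of cell make-up in the lung change of Aldh9a1 was not tested.

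Lung levels of Aldh1b1 moved with cardiac muscle markers, and those of Aldh1a2 with mesothelium markers. Aldh1b1 was at 5.04, 3.66, 3.86, 4.08 and 4.33 in litters 1 to 5 without PFOS, at 3.83, 4.51, 4.12, 4.26 and 4.198 at 5 mg/kg/day, and at 3.80, 4.62, 4.65, 4.21 and 6.18 at 10 mg/kg/day. Litter 5 at 10 mg/kg/day was the highest and also had the highest mean of cardiac muscle markers, 10.1. Over the 15 lung arrays Aldh1b1 and the cardiac list had r = 0.83 (permutation p = 2e-05, adjusted 0.0016) and rho = 0.89 (permutation p = 4e-05, adjusted 0.0032). Without the 2 farthest arrays r was 0.82, and within the doses it was 0.87, 0.93 and 0.98. The change of Aldh1b1 at 10 mg/kg/day was 0.50 (SE 0.35), 0.13 without litter 5 and 0.14 (SE 0.22) with the cardiac level as a covariate, a setting chosen after seeing the data. Aldh1b1 exceeded the filter on 9 of 15 lung arrays, so these values rest partly on levels near the floor. The part of cardiac tissue in the change of Aldh1b1 was not tested.

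Aldh1a2, at 6.55 ± 0.16 (SD, n = 5), 6.50 ± 0.41 and 6.52 ± 0.27 in lung, had changes of -0.05 (95% interval -0.41 to 0.30) and -0.04 (-0.39 to 0.32). Its lowest litter, litter 1 at 5 mg/kg/day with 5.78, also had the lowest mean of mesothelium markers, 6.69. That array was the lowest for stellate cell and fibroblast markers (8.01) and cardiac muscle markers (6.72) too, so this litter does not single out mesothelium. The relation with the mesothelium list had r = 0.83 (permutation p = 0.00031, adjusted 0.0124) and rho = 0.82 (permutation p = 0.00037, adjusted 0.0148). It was 0.68 without the 2 farthest arrays and 0.78, 0.99 and 0.71 within the doses. Over all lung arrays Aldh1a2 also tended to be higher where the stellate cell and fibroblast list was higher. Its relation with markers is therefore not particular to mesothelium.

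**Figure D4:**
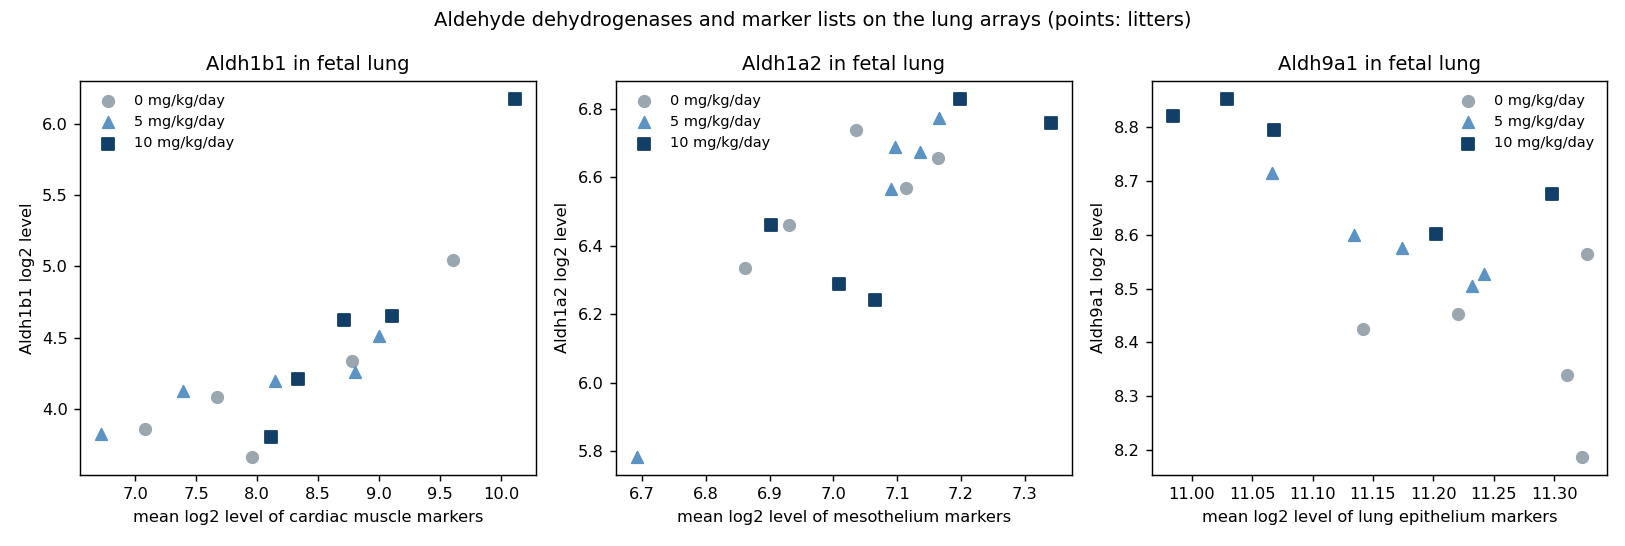
Log2 level of Aldh1b1, Aldh1a2 and Aldh9a1 in fetal lung against the mean log2 level of the cardiac muscle, mesothelium and lung epithelium markers of the same array. Each of the 15 points is a litter, with shape and shade giving the dose. Aldh1b1 and Aldh1a2 are higher where their marker list is higher at each dose, and Aldh9a1 is lower where the epithelial list is higher.

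Aldh1l1 was at 6.40 ± 0.44 (SD, n = 5), 6.09 ± 0.23 and 6.15 ± 0.47 in lung, with changes of -0.31 (95% interval -0.78 to 0.16) and -0.25 (-0.71 to 0.22). Aldh2 was at 10.09 ± 0.13, 10.10 ± 0.14 and 10.02 ± 0.06, with changes of 0.01 (-0.14 to 0.17) and -0.07 (-0.23 to 0.09). Aldh3a1 lay between 2.38 and 3.50 on 14 of 15 lung arrays and at 4.55 in litter 3 at 5 mg/kg/day. None of the 10 other aldehyde dehydrogenase genes was called in lung. Of the related lists, the called genes in lung were Cyp4a14, which rose by 3.01 and 3.60, and at 10 mg/kg/day Cyp4a12a, which rose by 1.53 with a limma adjusted p that rounds to 0.05. Cyp4a14 was at 3.08, 3.54 and 3.61 in unexposed lung litters 1, 2 and 3, below the lowest 40th percentile of a lung array (4.16). Exposed lung litters had 6.33 to 8.27. Cyp4a14 thus entered the test through the exposed litters, and its changes are a description of uncertain size. No retinoid, ethanol, aldehyde-reducing, folate or carnitine gene on the lists was called there, while unadjusted p-values under 0.05 numbered 1, 0, 2, 1 and 1 at 5 mg/kg/day and 2, 0, 4, 1 and 0 at 10 mg/kg/day.

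Whether liver and lung differed in their response was tested as the liver change minus the lung change in 1 fit of all 30 arrays. Of 13879 genes 2.05% were called for the lower dose and 3.88% for the higher, with 1.57% and 2.21% called higher in liver and 0.483% and 1.67% lower. Of the 9 members tested, 3 and 4 were called, each with the higher change in liver. Aldh1a7 had the largest differences, 2.23 (SE 0.32, limma adjusted p = 8.05e-05) at the lower dose and 2.68 (SE 0.32, adjusted p = 2.24e-06) at the higher. For Aldh3a2 it was 0.98 (SE 0.16, adjusted p = 0.000272) and 1.20 (SE 0.16, adjusted p = 8.54e-06), and for Aldh9a1 0.45 (SE 0.09, adjusted p = 0.00446) and 0.47 (SE 0.09, adjusted p = 0.00152). For Aldh1a1 it was 1.25 at 5 mg/kg/day (SE 0.35, adjusted p = 0.0544, under 0.05 in 9 of 38 alternatives, which ranged from 0.0287 to 0.117) and, for the higher dose, 1.87 (SE 0.35, adjusted p = 0.000948).

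The difference for Aldh1b1 at 10 mg/kg/day was -0.77 (95% interval -1.55 to 0.01, limma adjusted p = 0.320), with the lung litter of high cardiac markers in it. For Aldh1a2, Aldh1a3, Aldh1l1 and Aldh2 the differences ranged from -0.22 to 0.17 at both doses, and none was called. The 10 other aldehyde dehydrogenase genes held 0 calls for the lower dose and 1 for the higher, Aldh1l2, with a difference of -1.02 (SE 0.24, limma adjusted p = 0.00881).

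Without PFOS the members fell into genes higher in liver and genes higher in lung. Aldh1a3 exceeded the filter on 5 of 15 liver and 0 of 15 lung arrays, so it entered the test through the tissue where it is higher, and its difference of 0.60 (4.12 against 3.52) is a description. Of the other 8 tested, 4 were called higher in liver and 4 higher in lung, and 82.9% of 13879 genes were called, 42.6% higher and 40.3% lower in liver, so that the count itself is no result about the family. Aldh1b1 was higher in liver by 4.03 (8.22 against 4.19), Aldh1l1 by 3.83 (10.23 against 6.40), Aldh9a1 by 1.89 (10.29 against 8.39) and Aldh3a2 by 0.64 (8.35 against 7.72). The lung level of Aldh1b1 was near the floor, with unexposed litters 2, 3 and 4 below the lowest 40th percentile of a lung array (4.16), as was the liver level of Aldh1a2, which exceeded the filter on 9 of 15 arrays, so the size of both differences is uncertain. The liver minus lung difference was -3.25 for Aldh1a1 (6.19 against 9.44), -3.03 for Aldh1a7 (6.47 against 9.49) and -2.21 for Aldh1a2 (4.35 against 6.55). The unexposed litters of the tissues were apart for these 7 genes, 4 higher in liver (34.8% of all genes) and 3 lower (35% of all genes), and overlapped for Aldh2. Aldh2 differed by -0.16 (SE 0.07, limma adjusted p = 0.0437), a call lost in 9 of 38 alternatives, among them with the array medians set equal (-0.09, adjusted p = 0.284) and without unexposed liver litter 1, 2, 4 or 5 or unexposed lung litter 2, 3, 4 or 5 (0.0520 to 0.107). All 10 other aldehyde dehydrogenase genes were higher in liver, from Aldh3b1 by 0.34 to Aldh8a1 by 4.09.

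For each gene the 6 groups had an order of mean levels. Aldh1a7 ran from unexposed liver at 6.47 through liver at 5 and 10 mg/kg/day (8.78 and 9.14) to lung at 9.49 to 9.59. Unexposed liver alone stood apart for it, since each further pair of neighbours in the order overlapped, including liver at 10 mg/kg/day with lung. Aldh1a1 kept a gap, its highest liver litter at 8.82 lying below its lowest lung litter at 9.28. For Aldh3a2 and Aldh9a1 the groups of lung lay lowest, then unexposed liver, then exposed liver, with no overlap at these steps. For Aldh1b1 and Aldh1l1 all lung litters lay below all liver litters, for Aldh1a2 all above, and for Aldh2, Aldh1a3 and Aldh3a1 neighbouring groups overlapped throughout.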

How the data were processed

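RNA of fetal liver and lung was measured on 30 Affymetrix mouse arrays of 45101 probe sets. The deposited values are on the log2 scale and were made by RMA, per the submitters' processing notes. RMA corrects background, equalises array distributions and summarises probes, so a change common to most genes is removed. Neither the RMA version nor the set of arrays it was run on is given in the sources used here. Of the probe sets 34945 had 1 gene symbol, 932 several and 9160 none, and 64 array controls were left out. The highest probe set by mean over all arrays stood for each gene. Genes above the array's 40th percentile on at least 5 arrays were tested with limma 3.58.1 in R 4.3.3 (lmFit, eBayes), with the 3 doses of a tissue in 1 fit and all 30 arrays in the tissue comparisons, and Benjamini-Hochberg adjustment. Intervals are 95%. Sequence and permutation steps used Python 3.11.15, numpy 2.4.6 and scipy 1.17.1. The tests were checked on simulated data.

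The genes and lists were chosen with earlier results of these data known. All 10 genes are named. From each list the genes named are the 4 largest called changes per tissue and dose (or, with none called, the 2 smallest p-values), also with their values at the other dose, apart from Agmo, and the 3 genes most correlated with each called member. Litters are the replicates, and depth has no meaning for arrays, whose number limits the precision. Other filters, scalings, spread models, probe sets, left-out litters and a block on the replicate number were tried.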

Additional observations from a re-analysis of the deposited data

Results flagged for a closer look

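Of 60 groups of 5 litters, 4 held a litter whose gap to the nearest other, divided by the range of the group, was above Dixon's critical value of 0.71. Chance gives about 1 in 20 groups. All were in lung. Aldh1a2 was at 5.784 in litter 1 at 5 mg/kg/day against 6.566 in the next litter, and that array had the lowest means of the mesothelium (6.69) and cardiac muscle (6.72) markers and the highest of the hepatocyte markers (9.50). Aldh1l1 was at 6.982 in litter 3 at 10 mg/kg/day against 6.024. Aldh2 was at 9.864 in litter 1 without PFOS against 10.125. Aldh3a1 was at 4.554 in litter 3 at 5 mg/kg/day against 2.79, the single lung array on which its probe set passed the filter.

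The liver change exceeded the lung change by limma's interaction test for 3 genes at 5 mg/kg/day, Aldh1a7 (2.226), Aldh3a2 (0.984) and Aldh9a1 (0.447). At 10 mg/kg/day it did so for 4, Aldh1a1 (1.867), Aldh1a7 (2.681), Aldh3a2 (1.201) and Aldh9a1 (0.467).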

How the results depend on the processing

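The count of called members differed from the reported one in 43 of 245 alternative fits, by more than 1.5 times in 3. Of 2058 member values, 27 lost a call and 10 gained one. The sign changed in 58, none of them called in either fit. With the second probe set of each gene, 1 member (Aldh9a1) was called in liver at 5 and 1 at 10 mg/kg/day, since only 3 members had a tested second set. With both tissues in 1 fit 1 member (Aldh9a1) was called in lung at 10 mg/kg/day; the cause was not tested. Leaving out 1 litter at a time, the number of called members in liver was 4 to 4 at 5 mg/kg/day, 4 to 5 at 10 mg/kg/day and 0 between the doses. It was 0 in each lung comparison, 3 to 4 and 4 to 4 for the tissue differences in response at 5 and 10 mg/kg/day, and 7 to 9 between unexposed tissues. In that last comparison the median of all genes was 0.04, and 0.12 after quantile normalization, where Aldh2 differed by -0.24, and 0.11 with equal array medians. The replicate number was tested as a block. Deviations of same-numbered arrays correlated above 0.1 in 11 of 15 pairs of liver and lung (3, 3 and 5 of 5 at 0, 5 and 10 mg/kg/day) and in 7 of 30 pairs of doses, so not every pair passed and the numbers were not taken to pair litters. In a hint from the data, 13 of 15 liver arrays correlated best with the lung array of their own number. Within liver the block was the number alone, which joins different dams across doses. With it limma's adjusted p of Aldh1a1 at 5 mg/kg/day was 0.0518, leaving 3 members called there. In the tissue comparison the block joined liver and lung arrays of the same dose and number. With that block limma's adjusted p of the Aldh1a1 difference at 5 mg/kg/day was 0.0359. The number of arrays limits what small changes can be seen.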
